A study of Mus musculus with 6 samples.

Results

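The genes of G2 phase and mitosis, 36 of the 46603 genes counted, were examined in cultures of enteric glial cells (EGCs), which support the neurons of the gut, with and without lipopolysaccharide (LPS), a component of the bacterial cell wall. The members were taken by gene symbol from a list of 36, and each symbol was found for a single identifier. The cells were grown as neurospheres from whole C57BL/6J mouse intestines taken on embryonic day 14.5 and then plated in serum until confluent. The 3 control cultures were untreated, and the 3 LPS cultures received 100 ng/ml for 12 h. The cultures carried no transgene or mutation that the labels name, the number of embryos behind each culture was not given, and no cell type was sorted. Nothing in the labels says that the cultures were independent, so p-values measure the spread between these libraries, which may be technical.

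Cells divide by building up a shared set of proteins late in the cycle. Cyclins of the A and B type switch on the kinase CDK1, which starts mitosis. Kinetochores then tie chromosomes to the spindle, a checkpoint holds the anaphase-promoting complex (APC/C) back until each chromosome is attached, and the contractile ring splits the cell. Most of these transcripts are made in G2 and M phase and are low in resting cells, so they serve as markers of dividing cells. In RNA from a whole culture, fewer dividing cells and less of each transcript per dividing cell cannot be told apart.

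Totals per library lay between 18775316 and 23664312 counts, and each member had between 25 and 4253 counts in each library, above the 3 counts taken as the detection floor. All 36 passed the count filter that left 15226 genes. The members together made up 0.0972%, 0.107% and 0.157% of all counts in the control libraries. In the LPS libraries this share was 0.0786%, 0.0597% and 0.0449%. Values of a group are given in the order of its replicates 1, 2 and 3. Exons of 10 members overlap a gene on the opposite strand, and the strand option of the counting was not given in the sources used here, so reads of such pairs cannot be told apart. Foxm1 and Top2a also share 241 and 122 exon bases with genes on the same strand. Levels are given as CPM, counts scaled to library size with TMM factors, and the floor covers counting error only.

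First, LPS was compared with control for each member. The log2 fold change was negative for 36 of 36 members, from -1.51 to -0.22, with a median of -0.87, which is 1.83-fold lower. The median over all 15226 genes tested was -0.02. Of the 36 members, 5 fell and 0 rose at an adjusted p under 0.05 in the edgeR quasi-likelihood test, against 6.71% of all genes tested that were called lower and 9.09% called higher. At an unadjusted p under 0.05, 25 members were lower and 0 higher, against 16.0% of all genes for lower. All 3 LPS libraries lay below all 3 control libraries for 27 members, a pattern found in 19.4% of the genes tested.

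**Figure D1:**
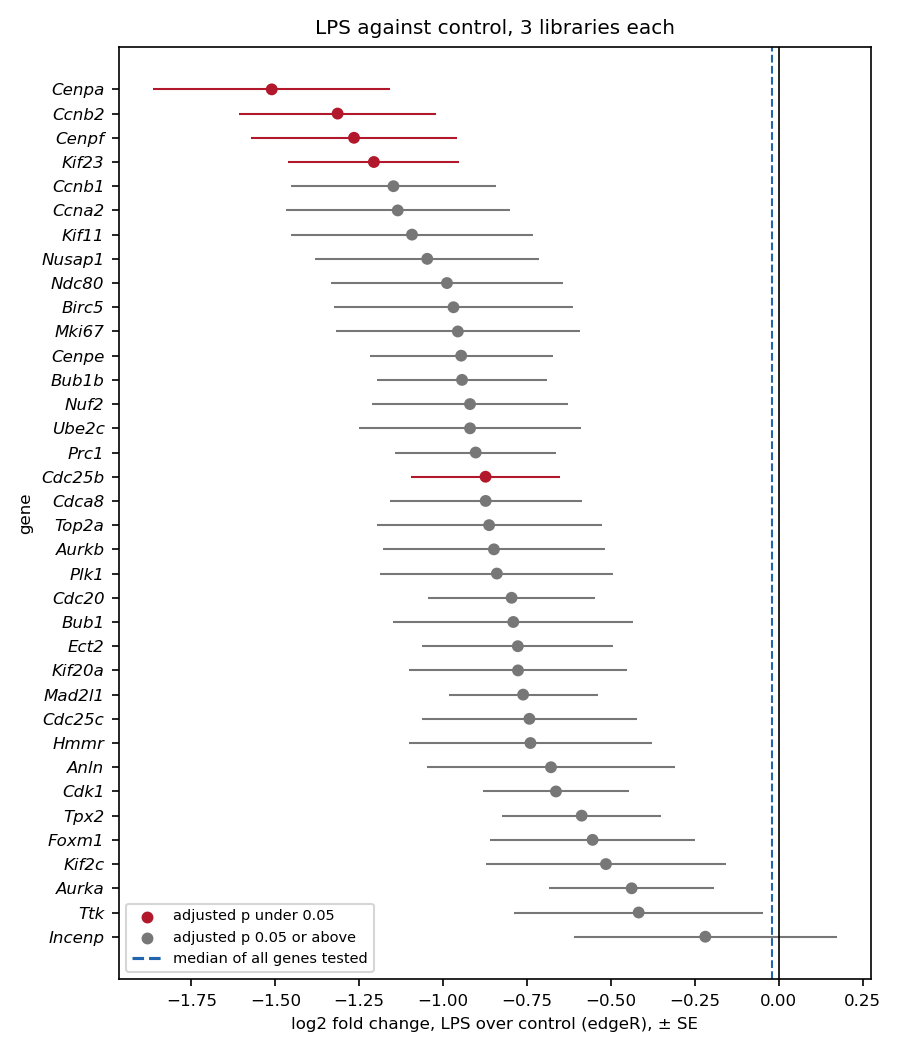
Log2 fold change of each of the 36 genes between 3 LPS and 3 control libraries (x axis, edgeR), with bars of 1 SE. Each point lies left of 0, from -1.51 for Cenpa to -0.22 for Incenp, and the 5 genes in red passed an adjusted p of 0.05.

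The 5 genes that fell were Cenpa, Ccnb2, Cenpf, Kif23 and Cdc25b. Cenpa encodes the histone H3 variant that marks centromeres. It was at 20.3, 20.6 and 37.4 CPM in control and 12.2, 9.14 and 6.12 CPM in LPS. The groups did not overlap, and control replicate 3 was far above the other controls. Its log2 fold change was -1.51 (SE 0.35, edgeR adjusted p = 0.0401). Ccnb2, a B-type cyclin that activates CDK1, was at 15.0, 17.8 and 25.6 CPM in control and 10.1, 7.86 and 5.55 CPM in LPS. The log2 fold change of Ccnb2 was -1.31 (SE 0.29, edgeR adjusted p = 0.0355).

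Cenpf, a large protein of the outer kinetochore, was at 17.6, 20.2 and 23.4 CPM in control and 11.9, 8.30 and 5.23 CPM in LPS. Its log2 fold change was -1.27 (SE 0.31, edgeR adjusted p = 0.0438). Kif23, the kinesin of the central spindle that positions the cleavage furrow, was at 20.5, 21.2 and 31.6 CPM in control and 13.4, 10.2 and 8.17 CPM in LPS. It had the lowest adjusted p of the members (0.0306 by edgeR), with a log2 fold change of -1.21 (SE 0.25). Cdc25b, a phosphatase that activates CDK1 at the entry into mitosis, was at 23.8, 23.8 and 31.0 CPM in control and 17.6, 14.7 and 10.5 CPM in LPS. Its log2 fold change was -0.87 (SE 0.22, edgeR adjusted p = 0.0490), and 92 of its exon bases overlap Spef1 on the opposite strand. None of the 5 genes overlapped between groups, and LPS replicate 3 was the lowest library for each.

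The calls depended on which libraries were used. The edgeR test called 0 of the 36 members lower when a control library was left out, against 1.25%, 0.72% and 6.66% of all genes without replicate 1, 2 or 3. It called 0 without LPS replicate 2 (1.04% of all genes), 2 without LPS replicate 1 (1.44%), Cenpf among them (edgeR adjusted p = 0.0407), and 6 without LPS replicate 3 (9.13%). Without LPS replicate 3, 4 of the 5 genes were still called and Cenpa was not (edgeR adjusted p = 0.0548). The number was 9 with upper-quartile factors (10.4% of all genes), 12 with library size alone (13.5%) and 17 with DESeq2 (11.0%). It was 4 with RLE factors (6.48% of all genes), without a filter (3.28%) and with at least 10 counts in each library (7.01%), each without Cdc25b, and 5 with limma-voom (6.05%), without Cenpa (adjusted p = 0.0522). With the replicate number as a block, 4 members were called lower, against 14.9% of all genes, and Cdc25b was lost (log2 fold change -0.89, edgeR adjusted p = 0.0535).

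Next, the promoters of these genes were read. Genes of G2 and M phase are known for the cell cycle genes homology region (CHR), which the DREAM and MuvB complexes bind, and for CCAAT boxes, which NF-Y binds. RefSeq promoter windows (GRCm38.p6, 250 bases before to 50 bases after the start of transcription) matched 29 of the 36 members. Not matched were Aurkb, Incenp, Kif20a, Ccna2, Cdc25c, Foxm1 and Tpx2. The letters TTTGAA or TTTAAA (CHR) and CCAAT were searched on both strands. The stretches below run from 140 bases before the start to 25 bases from it, for the 5 genes that fell and for Ccnb1 and Top2a, with motif matches in capitals on whichever strand they lie (TTCAAA and ATTGG are the reverse forms).
Ccnb2: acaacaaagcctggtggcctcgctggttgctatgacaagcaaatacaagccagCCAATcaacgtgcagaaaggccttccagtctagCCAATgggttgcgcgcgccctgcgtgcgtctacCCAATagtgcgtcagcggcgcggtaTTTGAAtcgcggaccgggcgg
Cenpa: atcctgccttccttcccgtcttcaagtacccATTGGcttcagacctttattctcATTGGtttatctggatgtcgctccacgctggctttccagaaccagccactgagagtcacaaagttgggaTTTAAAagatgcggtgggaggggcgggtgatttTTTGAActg
Cenpf: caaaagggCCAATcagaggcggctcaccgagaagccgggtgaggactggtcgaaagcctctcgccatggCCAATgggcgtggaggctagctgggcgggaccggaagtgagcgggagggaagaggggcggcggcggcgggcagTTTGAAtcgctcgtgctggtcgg
Kif23: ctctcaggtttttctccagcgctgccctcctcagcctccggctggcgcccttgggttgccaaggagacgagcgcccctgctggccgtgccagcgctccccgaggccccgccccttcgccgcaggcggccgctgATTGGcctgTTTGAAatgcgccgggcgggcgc
Cdc25b: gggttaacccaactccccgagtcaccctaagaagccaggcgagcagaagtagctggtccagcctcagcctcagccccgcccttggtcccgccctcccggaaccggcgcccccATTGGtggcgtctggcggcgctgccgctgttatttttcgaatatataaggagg
Ccnb1: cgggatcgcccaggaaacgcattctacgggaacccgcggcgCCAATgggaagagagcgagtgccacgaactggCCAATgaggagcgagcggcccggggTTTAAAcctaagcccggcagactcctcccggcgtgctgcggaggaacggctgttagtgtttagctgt
Top2a: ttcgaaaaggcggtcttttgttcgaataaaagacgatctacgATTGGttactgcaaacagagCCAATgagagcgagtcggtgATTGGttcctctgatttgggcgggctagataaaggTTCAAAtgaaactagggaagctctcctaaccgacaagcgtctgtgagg

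The Ccnb2 stretch lies at chr9:70421530-70421694 (minus strand) and that of Cenpa at chr5:30666746-30666910 (plus strand). Cenpf is at chr1:189688062-189688226 (minus strand) and Kif23 at chr9:61946775-61946939 (minus strand). Cdc25b is at chr2:131186808-131186972 (plus strand), Ccnb1 at chr13:100786462-100786626 (minus strand) and Top2a at chr11:99024165-99024329 (minus strand). The Ccnb2 stretch shows 3 CCAAT matches before a TTTGAA, and another TTTGAA lies upstream of the stretch, at bases -167 to -162. Kif23 has 1 match of each, close together at the start. Ccnb1 has the TTTAAA form with 2 CCAAT matches. In the Cdc25b window CCAAT was found once and neither CHR form was found, which says nothing beyond these letters in this window.

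Over the 29 members with a window, 24 (82.8%) held TTTGAA or TTTAAA, against 22.7% of the 10829 tested genes with a window and 30.6% of all 27025 genes with a window. A match within 50 bases of the start was present in 21 members (72.4%), against 6.44% of the tested genes. CCAAT was found in 22 members (75.9%), against 42.5% of the tested genes. In 15 members a window held at least 2 (51.7%, against 16.0% of the tested genes). Both kinds of match were in a window of 20 members (69.0%), against 9.20% of the tested genes. The median log2 fold change was -0.91 for these 20 members and -0.87 for the other 9 with a window. In 2 places a pair of matches shared bases. A match is a run of letters, not a measured binding site.

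**Figure D2:**
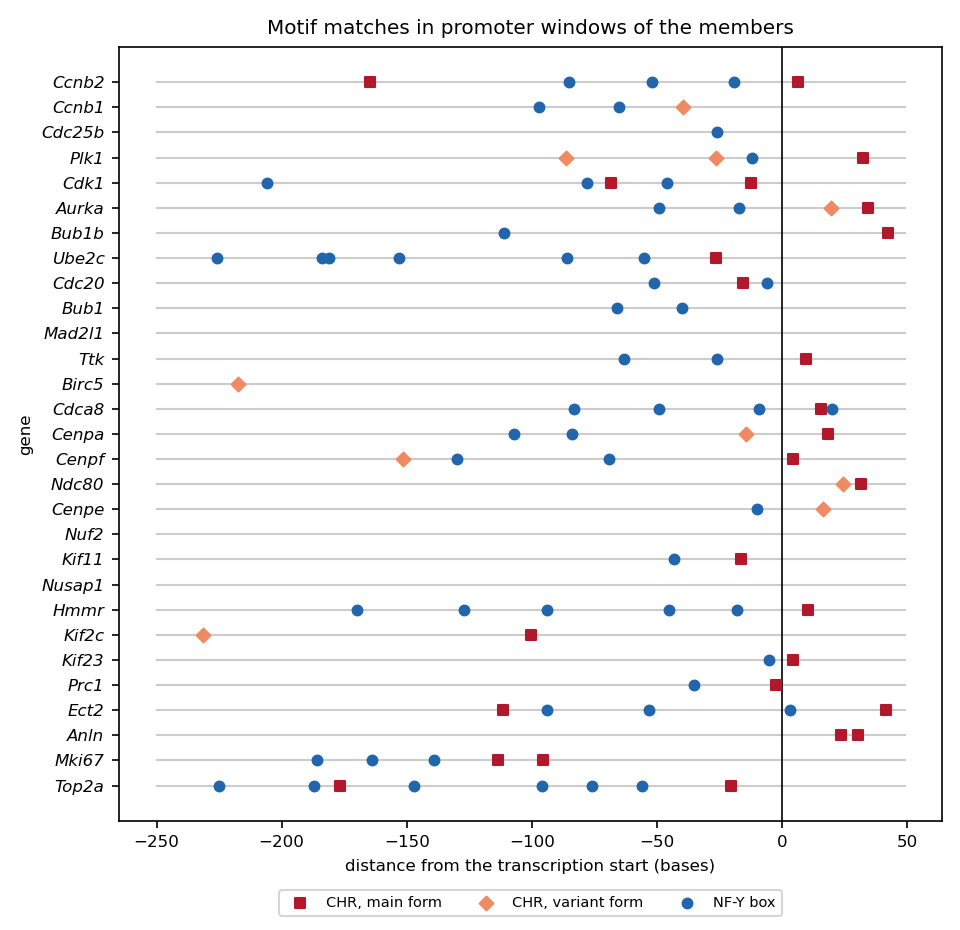
Positions of motif matches (x axis, bases from the start of transcription) in the promoter windows of 29 members, 1 line per gene, for the window nearest the annotated start. Red squares are TTTGAA, orange diamonds TTTAAA and blue circles CCAAT. Matches of the first 2 kinds gather near the start in 21 of the 29 genes.

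The members were then described by role. Among the 9 genes of mitotic entry the median log2 fold change was -0.84, and 2 of 9 were called lower. Ccnb1, the main mitotic cyclin, was at 18.3, 19.7 and 26.0 CPM in control and 13.2, 9.64 and 6.02 CPM in LPS, without overlap (log2 fold change -1.15, SE 0.31, edgeR adjusted p = 0.0557). Cdk1, its kinase, was at 41.4, 43.1 and 65.5 CPM in control and 36.3, 32.1 and 26.3 CPM in LPS (log2 fold change -0.66, edgeR adjusted p = 0.0962). The groups of both genes stayed apart, although neither was called. Ccna2, the A-type cyclin of S and G2 phase, had a log2 fold change of -1.14.

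Plk1, the kinase that drives spindle assembly and mitotic entry, overlapped between groups. Its CPM were 16.0, 18.8 and 29.2 in control and 16.3, 11.8 and 7.59 in LPS (log2 fold change -0.84, edgeR adjusted p = 0.160). Foxm1, a transcription factor of G2 and M phase genes, was at 22.5, 23.1 and 40.7 CPM in control and 25.01, 18.9 and 14.8 CPM in LPS. LPS replicate 1 thus lay above 2 of the control libraries of Foxm1. The log2 fold change of Foxm1 was -0.55 (edgeR adjusted p = 0.270), or -0.20 without control replicate 3 and -0.77 without LPS replicate 1. Aurka, a kinase of the centrosome, was at 13.0, 13.2 and 15.5 CPM in control and 13.7, 9.86 and 7.17 CPM in LPS. Its log2 fold change of -0.44 (edgeR adjusted p = 0.278) was the smallest of the role. Cdc25c, a second mitotic phosphatase, had the lowest level of the members at 3.50 ± 0.705 CPM in control (SD, n = 3).

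The 6 genes of the spindle checkpoint and APC/C had a median of -0.79, with 0 called by edgeR and 4 at an unadjusted p under 0.05. Bub1b, a kinase-like inhibitor of the APC/C, was at 21.7, 23.6 and 36.3 CPM in control and 17.7, 12.6 and 12.1 CPM in LPS, without overlap (log2 fold change -0.94, SE 0.25, edgeR adjusted p = 0.0578). Ttk, the kinase MPS1 that starts the checkpoint, had the second smallest change of the members. Its CPM were 5.51, 6.15 and 10.6 in control and 7.51, 5.57 and 3.56 in LPS, which overlapped (log2 fold change -0.42, edgeR adjusted p = 0.491). Without control replicate 3 the log2 fold change of Ttk was -0.055, and without both libraries numbered 3 it was 0.19. It was -0.70 without LPS replicate 1. Cdc20, Ube2c, Mad2l1 and Bub1 had log2 fold changes between -0.92 and -0.76.

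The chromosomal passenger complex, which corrects faulty attachments, comprises Aurkb, Birc5, Cdca8 and Incenp. Aurkb, its kinase, was at 10.6, 11.8 and 21.4 CPM in control and 10.4, 7.52 and 6.44 CPM in LPS (log2 fold change -0.85, edgeR adjusted p = 0.141). Birc5 and Cdca8 had log2 fold changes of -0.97 and -0.87. Incenp, the scaffold of the complex, departed from its partners. It was at 31.2, 35.5 and 75.3 CPM in control and 36.5, 31.7 and 53.9 CPM in LPS, so that the libraries numbered 3 were the highest of both groups. Its log2 fold change was -0.22 (SE 0.39, edgeR adjusted p = 0.747), and it was 0.30 without control replicate 3.

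The 5 genes of the centromere and kinetochore had the lowest median of the 7 roles, -0.99, and none overlapped between groups. Beside Cenpa and Cenpf, Cenpe, a kinesin that moves chromosomes to the spindle equator, was at 26.1, 27.3 and 39.6 CPM in control and 21.6, 14.7 and 12.0 CPM in LPS (log2 fold change -0.95, SE 0.27, edgeR adjusted p = 0.0694). Ndc80 and Nuf2, partners in the complex that holds microtubules, had log2 fold changes of -0.99 and -0.92.

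Among the 5 spindle genes the median was -0.74 and 0 were called by edgeR, with 3 at an unadjusted p under 0.05. Kif11, the motor that pushes spindle poles apart, was at 22.9, 28.5 and 49.3 CPM in control and 20.8, 15.4 and 11.0 CPM in LPS (log2 fold change -1.09, SE 0.36, edgeR adjusted p = 0.0966). Kif2c, which takes microtubules apart at the centromere, overlapped, with 10.2, 13.7 and 20.2 CPM in control and 14.7, 8.80 and 7.28 CPM in LPS (log2 fold change -0.52, edgeR adjusted p = 0.376). Without control replicate 3 it was -0.20 for Kif2c, and without LPS replicate 1 it was -0.87. Nusap1, Hmmr and Tpx2 had log2 fold changes of -1.05, -0.74 and -0.59.

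The 5 genes of cytokinesis had a median of -0.78, with Kif23 called. Prc1, which bundles the midzone microtubules, was at 48.7, 49.7 and 67.3 CPM in control and 38.8, 27.5 and 22.3 CPM in LPS, without overlap (log2 fold change -0.90, SE 0.24, edgeR adjusted p = 0.0552). Anln, an actin-binding protein of the contractile ring, was at 63.0, 62.1 and 56.2 CPM in control and 53.6, 41.3 and 18.4 CPM in LPS. It was the single member whose highest library was not control replicate 3, and LPS replicate 3 was far below the other LPS libraries (log2 fold change -0.68, SE 0.37, edgeR adjusted p = 0.263). Without LPS replicate 3 its log2 fold change was -0.35, and it was 1 of 5 members, with Aurka, Hmmr, Kif2c and Ttk, whose value was then smaller by over 1.5 times. Ect2 and Kif20a both had log2 fold changes of -0.78.

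Mki67 and Top2a, a coat protein of mitotic chromosomes and the enzyme that untangles DNA strands, had the highest CPM of the members, which is not corrected for transcript length. Mki67 was at 59.9, 84.0 and 160.3 CPM in control and 54.0, 56.8 and 46.0 CPM in LPS (log2 fold change -0.96, SE 0.36, edgeR adjusted p = 0.133). Top2a was at 89.9, 98.9 and 175.8 CPM in control and 87.5, 65.2 and 47.6 CPM in LPS (log2 fold change -0.86, SE 0.33, edgeR adjusted p = 0.140). For both genes the groups stayed apart by a narrow margin, and control replicate 3 was far above the other controls. Without it the log2 fold change was -0.45 for Mki67 and -0.48 for Top2a, and for 16 of the 36 members, these and Ttk, Foxm1, Kif2c, Aurkb, Bub1, Cdca8, Ndc80, Tpx2, Cdk1, Birc5, Nusap1, Plk1, Kif11 and Ccna2, it was smaller by over 1.5 times. Per kilobase of exon, Top2a had the highest control level of the members (13.5 CPM per kb), followed by Ccnb2 (12.7) and Ccna2 (11.4), while Mki67 was at 10.1 and Cdc25c the lowest (0.71). The median control level per kilobase of the members lay at percentile 52.9 of the genes tested.

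**Figure D3:**
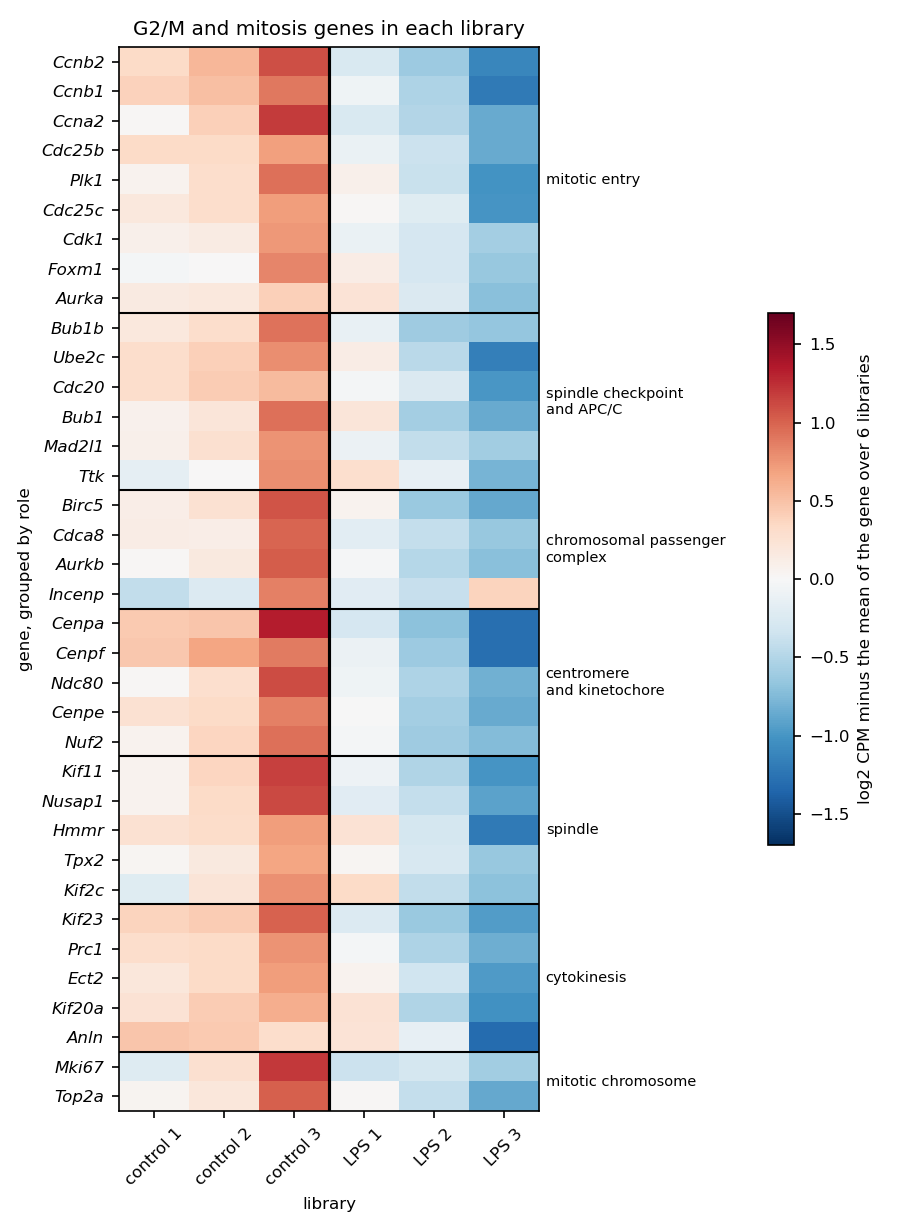
Level of each member in each library (color, log2 CPM minus the mean of the gene over 6 libraries), with members grouped by role and a line between control and LPS. Control replicate 3 is the highest library in 35 of 36 genes and LPS replicate 3 the lowest in 35 of 36.

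The libraries numbered 3 stood apart in both groups. Control replicate 3 was the highest of the 6 libraries for 35 of 36 members, against 18.4% of the genes tested, and LPS replicate 3 was the lowest for 35, against 22.5%. Both held for 34 members, against 2.84%. The median member was 1.58-fold higher in control replicate 3 than in the mean of the other controls, and LPS replicate 3 was at 0.635 of the mean of the other LPS libraries.

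The LPS to control ratio therefore depended on the pair of libraries with the same number. The median log2 ratio of the members was -0.15 for number 1, -0.69 for number 2 and -1.72 for number 3, and for all genes tested it was -0.03, -0.04 and 0.00. These correspond to 0.900, 0.618 and 0.304 of the control level. In number 1, 27 of 36 members were lower in LPS, and in numbers 2 and 3 all 36 were. The 9 exceptions in number 1 were Plk1, Bub1, Kif20a, Tpx2, Foxm1, Kif2c, Aurka, Ttk and Incenp, the same 9 whose groups overlapped. For each of the 36 members the ratio was highest in number 1 and lowest in number 3, an order found in 18.8% of the genes tested. The difference between pairs was not tested, since each holds 1 library of each group.

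**Figure D4:**
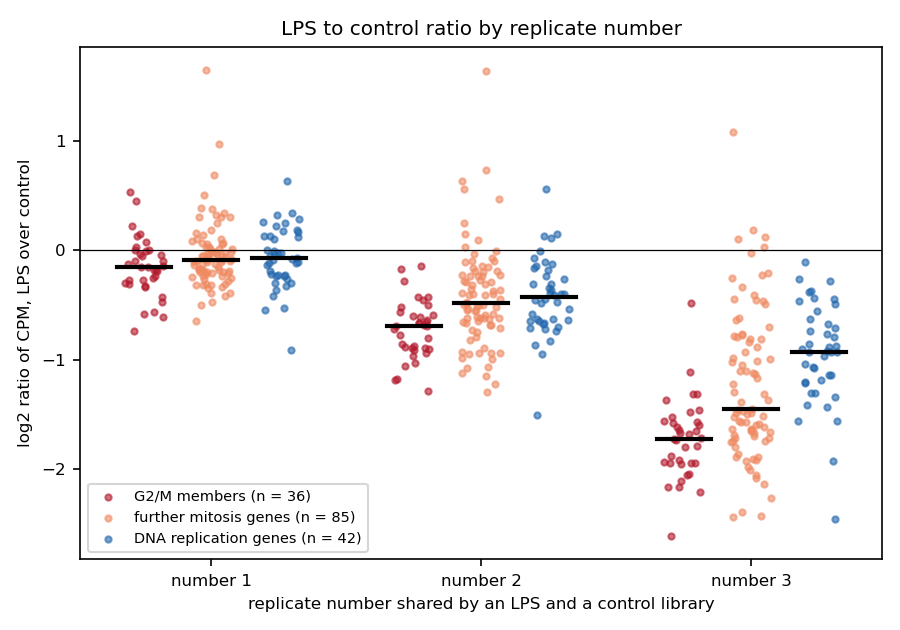
Log2 ratio of CPM between the LPS and the control library of the same replicate number (y axis), for the members, the further mitosis genes and the DNA replication genes. Each point is a gene and each bar a median. The members' medians are -0.15, -0.69 and -1.72 for numbers 1, 2 and 3.

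Without both libraries numbered 3, an alternative chosen after seeing the data, the median was -0.40 and the edgeR test on 2 against 2 libraries called 16 members lower, against 20.4% of all genes. In that fit Cenpa was at -0.91 (edgeR adjusted p = 0.00267), Ccnb2 at -0.85 (0.00558), Cenpf at -0.87 (0.00793), Kif23 at -0.79 (0.00412) and Cdc25b at -0.53 (0.00787).

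Other genes of the cell cycle were placed beside the members. Of 85 further mitosis genes, chosen by function across the same roles, 77 had a negative log2 fold change and the median was -0.66. It was -0.40 without control replicate 3 and -0.23 without both libraries numbered 3. Of these, 2 fell, Cenpn of the inner centromere (log2 fold change -1.08, SE 0.25, edgeR adjusted p = 0.0409) and Wee1, the kinase that holds CDK1 inactive (-0.96, SE 0.22, 0.0365). Cenpn was at 5.59, 6.29 and 9.09 CPM in control and 3.95, 3.18 and 2.77 CPM in LPS. Wee1 was at 15.8, 15.4 and 21.99 CPM in control and 10.1, 7.08 and 10.2 CPM in LPS. The call of Cenpn was lost when any library was left out, and that of Wee1 when any but LPS replicate 3 was. These 2 genes are 2.35% of the list, against 6.71% of all genes tested, while at an unadjusted p under 0.05 36 genes of the list were lower (42.4%, against 16.0%). The edgeR test called 0 of the list higher, with 3 at an unadjusted p under 0.05. DESeq2 called 20 lower (23.5%, against 11.0% of all genes) and 3 higher (3.53%, against 13.7%). With the replicate block 3 were called lower (3.53%, against 14.9%) and 1 higher (1.18%, against 15.4%). That gene was Zwint of the kinetochore (log2 fold change 0.50, edgeR adjusted p = 0.0374).

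A few of these genes went against the pattern. Trip13, an ATPase that turns the checkpoint off, was at 6.27, 6.198 and 10.2 CPM in control and 19.6, 19.3 and 10.4 CPM in LPS (log2 fold change 1.12, SE 0.33, edgeR adjusted p = 0.0711). Gtse1 and Ckap2, proteins of spindle microtubules, were low in both libraries numbered 3. Gtse1 was at 37.9, 34.5 and 25.2 CPM in control and 43.0, 33.8 and 11.6 CPM in LPS. Ckap2 was at 29.6, 30.6 and 18.4 CPM in control and 36.6, 26.1 and 8.53 CPM in LPS.

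Of 42 DNA replication genes, which act in S phase before the members, 40 had a negative log2 fold change, with a median of -0.52. The median was -0.19 without control replicate 3 and -0.20 without both libraries numbered 3. The edgeR test called 0 of them, with 13 lower at an unadjusted p under 0.05 (31.0%, against 16.0% of all genes). DESeq2 called 7 lower (16.7%, against 11.0%) and the replicate block 10 (23.8%, against 14.9%). As for the members, control replicate 3 was the highest library for most of them, 40 of 42. Unlike the members, LPS replicate 3 was the lowest for 11 of 42 (26.2%, against 97.2% of the members), and the median gene of the list was at 1.06 times the other LPS libraries there. This contrast between the lists was not tested. The summed replication level was 935.1, 804.0 and 896.4 CPM in LPS, while that of the members was 811.8, 625.1 and 489.3 CPM.

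Among 19 inhibitors of the cycle and related repressors, 3 fell (15.8%, against 6.71% of all genes tested) and 2 rose (10.5%, against 9.09%). Cdkn1c, the CDK inhibitor p57, was at 109.7, 128.6 and 31.7 CPM in control and 12.0, 11.5 and 10.4 CPM in LPS (log2 fold change -2.99, SE 0.53, edgeR adjusted p = 0.0186). Cdkn2c, an inhibitor of the G1 kinases, was at 15.8, 18.1 and 33.5 CPM in control and 8.10, 7.36 and 7.59 CPM in LPS (-1.55, SE 0.31, 0.0256). Unlike Cdkn1c, it was highest in control replicate 3. Rbl2, the pocket protein p130 of the DREAM complex, was at 75.4, 75.7 and 76.5 CPM in control and 51.8, 51.2 and 61.2 CPM in LPS (log2 fold change -0.47, SE 0.09, edgeR adjusted p = 0.0231).

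E2f4, the E2F of the same complex, rose from 38.3, 36.3 and 43.7 CPM in control to 51.3, 53.4 and 60.6 CPM in LPS (log2 fold change 0.48, SE 0.11, edgeR adjusted p = 0.0357). Btg1, an antiproliferative factor, was at 95.6, 93.5 and 108.6 CPM in control and 199.1, 202.5 and 185.9 CPM in LPS (log2 fold change 0.98, SE 0.09, edgeR adjusted p = 0.00238). Its call held in each fit without a single library, up to an adjusted p of 0.0246, while the other 4 lost theirs, with adjusted p up to 0.138, when the library left out was LPS replicate 1, LPS replicate 2 or control replicate 2. Cdkn1c, Rbl2 and E2f4 also lost it without control replicate 1, and Rbl2 without control replicate 3 (edgeR adjusted p = 0.0518). With limma-voom the calls of Cdkn1c (adjusted p = 0.0559) and Cdkn2c (0.0532) were lost, and E2f4 was not called with library size alone or without a filter. Cdkn1a, the CDK inhibitor p21, was at 410.2, 379.2 and 309.3 CPM in control and 547.1, 558.4 and 438.0 CPM in LPS (log2 fold change 0.49, SE 0.15, edgeR adjusted p = 0.0801). It was called with the replicate block (0.49, edgeR adjusted p = 0.00822).

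Last, markers of the cell types in the cultures were set beside the members, as summed CPM per library. The 12 macrophage markers summed to 3878, 4974 and 11592 CPM in control and to 4025, 5230 and 19239 CPM in LPS. Each of the 12 was highest in the library numbered 3 within both groups, 11 of 12 were above the floor in each library, and none was at 0. Of the 12, Adgre1 rose (log2 fold change 2.78, edgeR adjusted p = 0.0452). The libraries with most macrophage RNA thus held the highest member level among controls and the lowest among LPS cultures. The 8 smooth muscle markers summed to between 2426 and 2718 CPM in control and between 702.1 and 991.9 CPM in LPS, and all 8 fell. Of the 45 markers of all lists, 11 were called lower (24.4%, against 6.71% of all genes tested). The number was 6 without control replicate 1 (13.3%, against 1.25%), 4 without control replicate 2 (8.89%, against 0.72%), 6 without LPS replicate 2 (13.3%, against 1.04%) and 7 without LPS replicate 1 (15.6%, against 1.44%). In those fits not all 8 smooth muscle calls held. The number was 12 without control replicate 3 or LPS replicate 3. The 8 glial markers lay between 332.3 and 458.9 CPM in control and between 378.0 and 394.9 CPM in LPS, and of the 8, S100b fell (log2 fold change -1.91, edgeR adjusted p = 0.0238) and Fabp7 rose (1.29, 0.0122). Sox10, 1 of the 8 glial markers, lay between 73.8 and 100.7 CPM in control and between 75.9 and 78.2 CPM in LPS. Which cells the member transcripts came from, and the part of macrophages or smooth muscle in the member values, was not tested. The 8 mesenchymal markers lay between 16603 and 17438 CPM over the 6 libraries, with Pdgfra (log2 fold change 0.50, edgeR adjusted p = 0.0114) and Dcn (0.90, 0.0118) higher in LPS. Adgre1, Fabp7, Pdgfra and Dcn were the 4 of 45 markers called higher (8.89%, against 9.09% of all genes tested). All 4 calls were lost without control replicate 1 (3.03% of all genes called higher), control replicate 2 (2.44%) or LPS replicate 2 (3.36%). The number called higher was 1 without LPS replicate 1 (3.98% of all genes), 5 without control replicate 3 and 4 without LPS replicate 3. The 3 interstitial (ICC) markers were each lowest in the libraries numbered 3 within both groups. The ICC markers summed to 202.5, 203.5 and 68.1 CPM in control and 87.0, 78.4 and 50.5 CPM in LPS, lower in LPS in each number as the members were in sum, and 1 of the 3, Kit, fell (log2 fold change -2.12, edgeR adjusted p = 0.0473). The 6 neuron markers summed to 412.4, 409.8 and 243.9 CPM in control and 380.6, 399.8 and 258.9 CPM in LPS. Each of the 6 was lowest in the library numbered 3 within both groups. Of the 6, 1 was called lower, as were 6.71% of all genes tested.

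**Figure D5:**
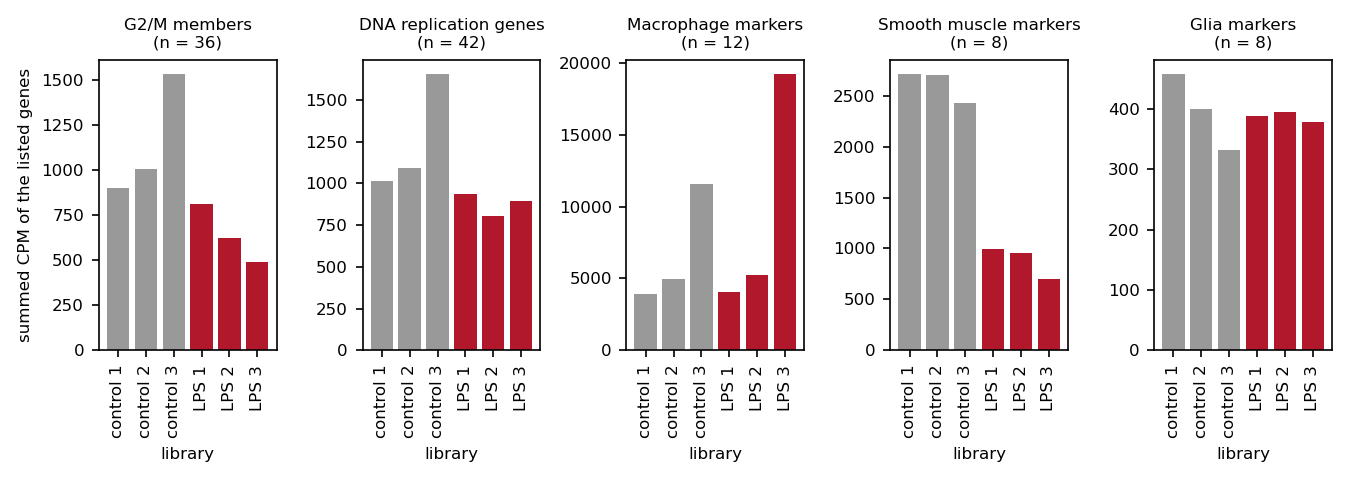
Summed CPM (y axis, from 0, a scale of its own in each panel) of 5 gene lists in each of the 6 libraries, gray for control and red for LPS. The members peak in control replicate 3 at 1534 CPM and are lowest in LPS replicate 3 at 489.3 CPM, while macrophage markers peak in both libraries numbered 3.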

How the data were processed

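Poly(A) RNA of 3 control and 3 LPS cultures was sequenced from stranded libraries. The authors deposited unnormalized read counts for each gene. Per the submitters' processing notes, the authors trimmed reads with cutadapt 1.15, removed contaminants with Bowtie2, aligned to GRCm38 with STAR 2.5.2b and counted with featureCounts 1.5.3. The strand option of the counting was not given in the sources used here. A count table of the whole series was not used.

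Counts of 46603 genes were filtered with filterByExpr (minimum count 10, minimum total 15), which left 15226 genes, and scaled with TMM factors. CPM are counts relative to the scaled library size. The main test was the edgeR 4.0.16 quasi-likelihood F-test in R 4.3.3, two-sided, with group as the term and Benjamini-Hochberg adjustment over the 15226 genes. A call is an adjusted p under 0.05. SEs were derived from the log2 fold change and the F statistic. The test was checked on simulated counts. Levels between genes are CPM per kilobase of merged exons in GENCODE M21.

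Alternatives were other scaling, other filters, DESeq2 1.42.0, limma-voom (limma 3.58.1), a replicate block and leaving out libraries. Deviations from group means correlated across genes at r = 0.513, 0.334 and 0.613 between control and LPS libraries numbered 1, 2 and 3, so the numbers were taken as pairs from the data. LPS replicate 2 correlated more with control replicate 1 (0.419). The members and lists were chosen with earlier results of these data known. Genes named with the value of each library are the called members, the 5 most and the 5 least negative fold changes, the 5 with the highest mean CPM, members chosen for each role, and called genes of the further mitosis and inhibitor lists. Some others are given as examples, chosen after their values were seen.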

Additional observations from a re-analysis of the deposited data

How the results depend on the processing

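The median log2 fold change of the members stayed negative in the 15 alternatives, from -1.13 without LPS replicate 1 to -0.40 without both libraries numbered 3. The number of members called lower was 5, against 9 with upper-quartile factors, 12 with library size alone, 17 with DESeq2 and 16 without both libraries numbered 3, and it ran from 0 to 6 over the fits that left out a single library. It was 4 with the replicate block, RLE factors, no filter or at least 10 counts in each library, and each of these lost Cdc25b. It was 5 with limma-voom, which lost Cenpa. The block changed no other call of a member. No member was called higher in any alternative. Of the further mitosis genes, 2 were called lower, against 6 with upper-quartile factors (7.06%, against 10.4% of all genes) and 15 with library size alone (17.6%, against 13.5%). The number was 20 with DESeq2 (23.5%, against 11.0%), 1 with limma-voom (1.18%, against 6.05%) and 12 without both libraries numbered 3 (14.1%, against 20.4%). It ran from 0 to 1 without a single library. The number called higher was 0, against 3 with DESeq2, 1 with the replicate block, 6 without both libraries numbered 3 (7.06%, against 22.6% of all genes) and from 0 to 2 without a single library, the 2 being without LPS replicate 3 (2.35%, against 12.6%). Of the 42 replication genes, 0 were called lower, against 5 with upper-quartile factors (11.9%, against 10.4% of all genes) and 8 with library size alone (19.0%, against 13.5%). The number was 7 with DESeq2 (16.7%, against 11.0%), 10 with the replicate block (23.8%, against 14.9%) and 1 without LPS replicate 3 (2.38%, against 9.13%). Without both libraries numbered 3 it was 10 (23.8%, against 20.4%), with 1 called higher (2.38%, against 22.6%). Of the 19 inhibitors, 3 were called lower and 2 higher. With limma-voom 1 and 2 were (5.26% and 10.5%, against 6.05% and 8.21% of all genes). With library size alone 3 and 1 were (15.8% and 5.26%, against 13.5% and 6.48%), and the same with no filter (against 3.28% and 4.48%). With DESeq2 3 and 3 were (15.8% each, against 11.0% and 13.7%), and with the replicate block 4 and 4 (21.1% each, against 14.9% and 15.4%). Without both libraries numbered 3 the numbers were 7 and 5 (36.8% and 26.3%, against 20.4% and 22.6%). Without a single library they ran from 0 to 3 lower and 1 to 5 higher. Upper-quartile factors and library size alone moved the median of all genes to -0.12 and -0.18, which lowers each member by about as much. Of 540 member values in the alternatives, 536 were negative. The exceptions were Incenp, at 0.055 without both libraries numbered 3 and from -0.48 to 0.30 over the fits without a single library, and Kif2c at 0.012 and Ttk at 0.19 without both libraries numbered 3. The cause of these changes was not tested. Depth did not limit detection of the members, since the lowest had 25 counts.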
